A study of Mus musculus with 4 samples.

Results

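The metallothioneins Mt1 and Mt2 and 8 genes of the NRF2 antioxidant response (Hmox1, Nqo1, Gclm, Gclc, Txnrd1, Srxn1, Slc7a11 and Sqstm1) were followed through the 4 libraries of the series. The 10 genes were chosen by name and were found among the 55536 gene IDs of the count tables through their GRCm38 symbols, 1 ID for each symbol. The libraries came from primary fibroblasts of ear clippings of C57BL/6 mice, in the states AF357425-High and AF357425-Low, named for a C/D box small nucleolar RNA of the imprinted Dlk1-Dio3 locus. For each state, 1 library of whole-cell RNA and 1 library of RNA pulled down with an antibody against fibrillarin (Abcam ab5821) were sequenced. Fibrillarin is the nucleolar enzyme that such small nucleolar RNAs guide to ribosomal and other RNAs. All cells were held for 48 h in KN93, which blocks calmodulin-dependent kinase II and was meant to bring the cells to a common cell cycle stage, and were then transfected for 24 h. The characteristics of the High samples name overexpression of AF357425 and those of the Low samples its inhibition, whereas the treatment protocol names gapmers against AF357425 or a scrambled control. Which transfection lies behind each state is therefore not settled here. The labels do not give the number of mice or say whether the libraries share a culture. With 1 library in each group, no difference below has a replicate check, and every interval covers counting error only.

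Metallothioneins are small cysteine-rich proteins that hold zinc and copper and bind toxic metals such as cadmium. Their genes are switched on by the zinc-sensing factor MTF1, which binds metal response elements in their promoters. NRF2 (gene Nfe2l2) is a transcription factor that KEAP1 marks for breakdown in unstressed cells. Oxidants and electrophiles disable KEAP1, and NRF2 then binds antioxidant response elements together with small MAF proteins and drives genes of glutathione synthesis, thioredoxin reduction, quinone reduction and heme breakdown. The repressor BACH1 occupies the same elements, above all at Hmox1.

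Reads assigned to genes came to 22082565 and 21693030 in whole-cell RNA of High and Low and to 25857770 and 27832061 in the pulldowns, and values are given as counts per 1e6 of these reads (CPM). Ribosomal RNA of mitochondria (mt-Rnr1 with mt-Rnr2) made up 63.4% of High and 59.8% of Low pulldown reads but 0.0926% and 0.0583% of the whole-cell reads. Fragments that fell on more than 1 gene were 9.38% and 8.54% of the pulldown fragments, against 1.05% and 1.09% of the whole-cell fragments. AF357425 itself had 0 reads in each library, so the state labels could not be checked by their target. All 10 fibroblast markers had reads in every library, with a summed level of 41474 and 51892 CPM in whole-cell RNA of High and Low. The chondrocyte markers summed to 288 CPM in High and 203 CPM in Low whole-cell RNA, with reads for 6 and 5 of 7 markers and Matn1 at 0, and to 113 and 140 CPM in the pulldowns. Each of the other 8 marker lists summed to at most 13.1 CPM in any library. Adgre1 of myeloid cells was at 0 in all, but 5 of 6 myeloid markers had reads in each library, with Cd14 at 4.98 CPM in High whole-cell RNA. Krt14 and Krt1 of keratinocytes were at 0 in all, while Trp63 had 3.53 and 3.09 CPM in High and Low whole-cell RNA. Mitf of melanocytes had 10.1 and 7.10 CPM there. Cpa3, Mcpt4 and Tpsb2 of mast cells were at 0 in all, and 1 of 6 mast cell markers had a read in each whole-cell library.

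Mt2 and Mt1 lie side by side on chromosome 8 (GRCm38, 94172618 to 94173567 and 94178883 to 94180327), 5315 nt apart, and no other RefSeq gene overlaps either span. Their promoter windows (RefSeq, GRCm38.p6, plus strand, 250 bases before to 50 after a transcript start) are shown because the pair had like counts in whole-cell RNA but not in the pulldown. The Mt2 window is chr8:94172368-94172667 and the Mt1 window chr8:94178839-94179138. Capitals mark matches on either strand to the metal response element core (TGCACNC or TGCGCNC) and to the antioxidant response element core (TGACNNNGC).
Mt1: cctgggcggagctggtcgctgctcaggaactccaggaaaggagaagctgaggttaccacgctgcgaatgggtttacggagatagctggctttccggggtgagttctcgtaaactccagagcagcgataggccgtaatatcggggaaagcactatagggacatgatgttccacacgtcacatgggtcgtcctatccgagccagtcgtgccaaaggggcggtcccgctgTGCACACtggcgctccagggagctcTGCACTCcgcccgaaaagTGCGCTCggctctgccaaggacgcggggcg
Mt2: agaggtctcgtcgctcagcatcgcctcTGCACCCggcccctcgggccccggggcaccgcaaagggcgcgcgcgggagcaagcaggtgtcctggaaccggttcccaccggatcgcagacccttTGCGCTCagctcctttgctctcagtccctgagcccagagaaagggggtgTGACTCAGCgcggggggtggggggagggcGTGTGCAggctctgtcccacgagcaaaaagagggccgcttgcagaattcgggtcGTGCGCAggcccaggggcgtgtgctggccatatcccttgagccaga
The Mt1 window held 3 matches to the metal response element core and none to the antioxidant response element core, and the Mt2 window held 4 and 1. The Mt1 window begins fewer than 250 bases before the Mt1 span, so it rests on a transcript start inside that span. The Mt2 window rests on the start of its span. The 2 windows are thus not placed alike, and the letters before the Mt1 window were not searched. Of all 32851 promoter windows of this length in the table, 25.7% held at least 1 metal response element core, 1.97% at least 3 and 0.517% at least 4. A match describes letters and is no evidence of binding.

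In whole-cell RNA the metallothioneins were present at nearly the same level in both states. Mt1 (ENSMUSG00000031765) had 647 reads in High and 575 in Low, or 29.3 and 26.5 CPM, and Mt2 (ENSMUSG00000031762) had 577 and 516 reads, or 26.1 and 23.8 CPM. The log2 ratio of High to Low, after scaling by the trimmed mean of M values (TMM), was 0.08 (95% interval -0.08 to 0.24) for Mt1 and 0.07 (-0.10 to 0.24) for Mt2. Both intervals include 0. They cover counting error only, so their upper ends set no maximum on a difference between the states. With library totals the upper end was 0.31 for both genes. The brain metallothionein Mt3 and the epithelial Mt4 are listed at 0 reads in each library. No limit on their level is drawn from this, since the widely expressed Slc39a7 and Gabarap are also listed at 0 in both whole-cell libraries.

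The pair parted in the pulldown, where Mt2 was nearly missing. Mt1 had 47 reads in the High pulldown and 58 in the Low pulldown, or 1.82 and 2.08 CPM. Mt2 had 1 and 2 reads, or 0.0387 CPM (exact binomial 95% interval 0.000979 to 0.215) and 0.0719 CPM (0.00870 to 0.260). For each Mt2 read there were 1.12 Mt1 reads in High whole-cell RNA (exact interval 1.00 to 1.26) and 1.11 in Low (0.988 to 1.26). In the pulldowns the same quotient was 47.0 (8.03 to 1895) and 29.0 (7.67 to 245), so in both states the pulldown interval lay above the whole-cell one. The odds ratio of pulldown to whole-cell RNA, Mt1 against Mt2, was 41.9 (exact conditional 95% interval 7.10 to 1693) in High and 26.0 (6.82 to 221) in Low. Mt2 was under the filter for the comparison of states in the pulldown and gets no ratio there, since both counts are at or under 3 reads. Mt1 had a pulldown log2 ratio of High to Low of 0.10 (-0.49 to 0.68), whose sign turned with library totals (-0.20). The larger share of fragments on more than 1 gene in the pulldowns moves with the low Mt2 counts, and its part in them was not tested. RefSeq holds no other gene over either span, while the annotation behind the counts is not given.

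**Figure D1:**
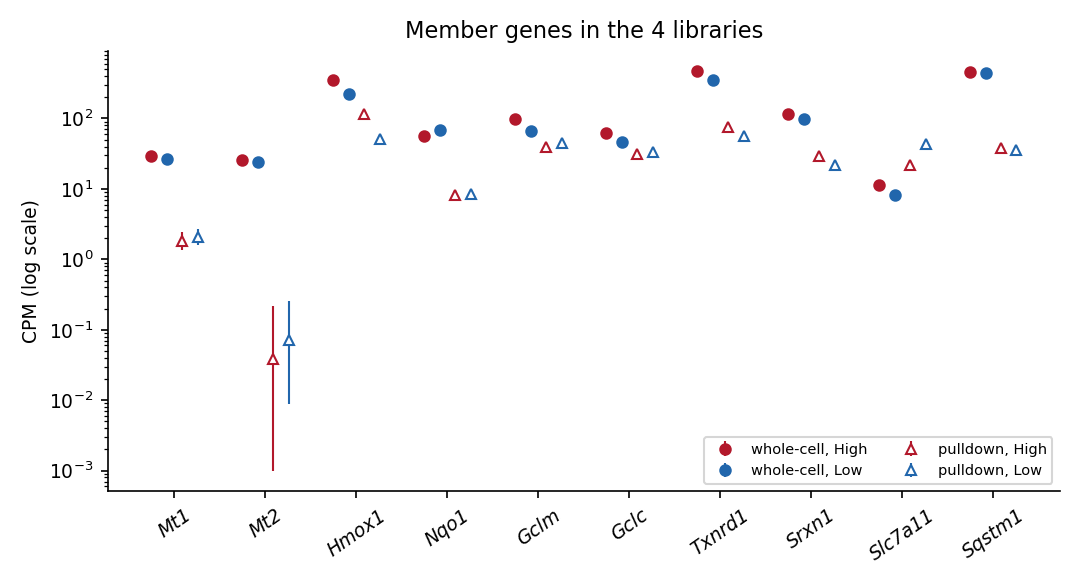
Level of each gene in CPM (log axis) in the 4 libraries, with filled circles for whole-cell RNA, open triangles for the pulldown, red for High and blue for Low; bars are exact 95% binomial intervals of the counts. Mt2 falls from 26.1 and 23.8 CPM in whole-cell RNA to 1 and 2 reads in the pulldowns, and Slc7a11 is the gene whose pulldown points lie above its whole-cell points; CPM is not corrected for length, so heights are not compared between genes.

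Hmox1 encodes heme oxygenase 1, which breaks heme down to biliverdin, iron and carbon monoxide. The gene (ENSMUSG00000005413, chromosome 8, 75093618 to 75100593) had 7727 reads in High and 4848 in Low whole-cell RNA, or 349.9 and 223 CPM. The pulldowns held 2971 and 1436 reads, or 115 and 51.6 CPM. High exceeded Low in both kinds of library, and the exact intervals of the 4 levels do not overlap. The log2 ratio was 0.58 (0.53 to 0.63) in whole-cell RNA, where 455 of 13519 measured genes had a larger one. In the pulldown it was 1.45 (1.36 to 1.54), with 361 of 10736 genes above it. The line for a call was a whole interval beyond 2-fold, and Hmox1 was the 1 of 9 measured members called in the pulldown, against a background of 3.43% of all genes called higher and 2.90% called lower. By library totals the pulldown ratio was 1.16, still past the line. The difference of the pulldown and whole-cell ratios was 0.87 (0.76 to 0.97), above 0 but not past 2-fold, and it was 0.51 with library totals. The summed chondrocyte markers also differed between the states (288 CPM in High, 203 in Low whole-cell RNA, but 113 and 140 in the pulldowns). The fibroblast markers summed to 41474 and 51892 CPM in whole-cell RNA and to the closer 6606 and 6660 CPM in the pulldowns. Fn1 alone held 31428 and 40328 CPM of these whole-cell sums. Of the other fibroblast markers, Pdgfra, Thy1 and Lum were higher in High whole-cell RNA and the rest lower. The part of these markers in the Hmox1 values was not tested. In bulk RNA, fewer cells with the transcript and less transcript in each cell cannot be told apart.

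Nqo1 encodes a quinone reductase that is a standard readout of NRF2. The gene (ENSMUSG00000003849, chromosome 8, 107388225 to 107403205) had 1260 reads in High and 1498 in Low whole-cell RNA, or 57.1 and 69.1 CPM, and 215 and 232 reads, or 8.31 and 8.34 CPM, in the pulldowns. The whole-cell level was thus the lower one in High, the reverse of Hmox1. The log2 ratio was -0.34 (-0.45 to -0.23) for whole-cell RNA. For the pulldown it was 0.29 (0.02 to 0.57), and -0.0036 with library totals. The difference of the ratios was 0.63 (0.34 to 0.92), with 0.27 by library totals.

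Txnrd1, the cytosolic thioredoxin reductase, and Srxn1, the sulfiredoxin that restores overoxidized peroxiredoxins, had positive ratios in both kinds of library. Txnrd1 (ENSMUSG00000020250, chromosome 10, 82833951 to 82897724) had 10304 and 7658 reads in whole-cell RNA, or 467 and 353 CPM, and 1927 and 1550 reads, or 74.5 and 55.7 CPM, in the pulldowns. Srxn1 (ENSMUSG00000032802, chromosome 2, 152105524 to 152111376) had 2573 and 2106 reads, or 117 and 97.1 CPM, against 770 and 600 reads, or 29.8 and 21.6 CPM. For both genes the High library was the higher of each pair. The whole-cell ratio of Txnrd1 was 0.34 (0.29 to 0.38) and its pulldown ratio 0.71 (0.62 to 0.81). For Srxn1 they were 0.20 (0.11 to 0.28) and 0.76 (0.60 to 0.92). Neither passed 2-fold, and both passed a line of 1.5-fold in the pulldown, where 7.71% of all genes were called higher at that line. The differences of the ratios were 0.38 (0.27 to 0.48) and 0.56 (0.39 to 0.74), but 0.018 and 0.20 with library totals. The Txnrd1 span overlaps Eid3 and the long noncoding Gm38560. Eid3 had 341 and 260 whole-cell reads and 56 and 79 pulldown reads, and Gm38560 had 1, 0, 0 and 11. How many fragments Txnrd1 lost as shared with them is not known, so its values are uncertain.

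Glutathione is made by glutamate-cysteine ligase, of which Gclc is the catalytic and Gclm the modifier subunit, from cysteine that the cystine importer Slc7a11 supplies. The Gclm gene (ENSMUSG00000028124, chromosome 3, 122245487 to 122267215) had 2165 and 1451 reads in High and Low whole-cell RNA, or 98.0 and 66.9 CPM, and 1034 and 1251 reads, or 39.99 and 44.9 CPM, in the pulldowns. The Gclc gene (ENSMUSG00000032350, chromosome 9, 77754535 to 77794489) had 1359 and 998 reads, or 61.5 and 46.0 CPM, and 802 and 926 reads, or 31.0 and 33.3 CPM. For both subunits High had the larger CPM of the whole-cell pair and the smaller CPM of the pulldown pair. The log2 ratios in whole-cell RNA were 0.49 (0.39 to 0.58) for Gclm and 0.35 (0.24 to 0.47) for Gclc. After TMM scaling the pulldown ratios were 0.13 (0.01 to 0.25) and 0.19 (0.06 to 0.33), and library totals turned them to -0.17 and -0.10. The difference of the ratios was -0.36 (-0.51 to -0.21) for Gclm and -0.16 (-0.34 to 0.02) for Gclc. The Gclm span overlaps a pseudogene, Gm6061, with 24, 29, 0 and 0 reads, and the edge of the long noncoding Gm46822.

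Slc7a11 had ratios of opposite sign in the 2 kinds of library. The gene (ENSMUSG00000027737, chromosome 3, 50364936 to 50499087) had 247 reads in High and 176 in Low whole-cell RNA, or 11.2 and 8.11 CPM, but 567 and 1198 reads, or 21.9 and 43.0 CPM, in the pulldowns. The Low pulldown was the highest of the 4 libraries, and the exact intervals of the 4 levels do not overlap, although those of the whole-cell pair come close (9.83 to 12.7 and 6.96 to 9.40 CPM). The whole-cell ratio was 0.40 (0.11 to 0.69). The pulldown ratio was -0.68 (-0.83 to -0.53), and the difference of the ratios was -1.08 (-1.39 to -0.76), with 670 of 11356 genes below it. With library totals that difference was -1.44 and past the 2-fold line. For the other chain of the transporter, Slc3a2, the whole-cell reads were 2929 in High and 2470 in Low and the pulldown reads 501 and 783.

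Sqstm1 encodes p62, an autophagy receptor that binds KEAP1 and is itself an NRF2 target. The gene (ENSMUSG00000015837, chromosome 11, 50200152 to 50210820) had 10035 and 9546 reads in whole-cell RNA, or 454 and 440.0 CPM, and 985 and 1002 reads, or 38.1 and 36.0 CPM, in the pulldowns. The whole-cell ratio was -0.02 (-0.06 to 0.02) and positive, up to 0.05, under the other scalings, so no direction is given. In the pulldown it was 0.38 (0.25 to 0.50), and 0.08 with library totals. The difference of the ratios was 0.39 (0.26 to 0.53), and 0.04 with library totals.

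**Figure D2:**
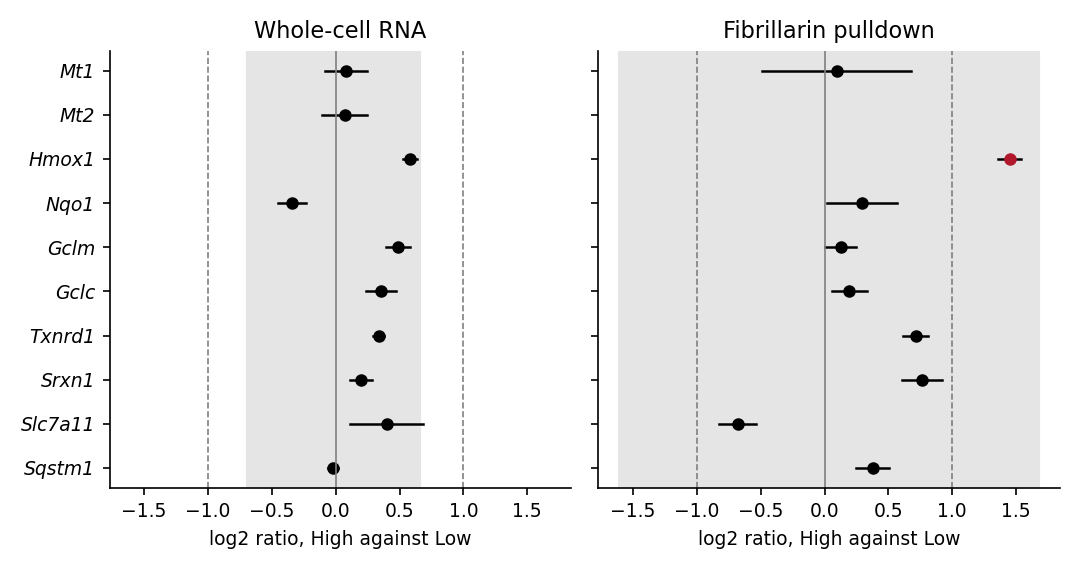
Log2 ratio of High to Low for each gene in whole-cell RNA (left) and in the pulldown (right), with 95% counting intervals; dashed lines mark 2-fold, grey bands the central 95% of all measured genes, and red a call beyond 2-fold. Hmox1 at 1.45 in the pulldown is the 1 call, Nqo1, Slc7a11 and Sqstm1 change side between the panels (Sqstm1 with a whole-cell interval that includes 0), and Mt2 has no pulldown ratio.

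By count, 0 of 10 members passed the 2-fold line in whole-cell RNA, where 0.111% of all genes were called higher and 0.133% lower. The interval lay wholly above 0 for 6 members (Hmox1, Gclm, Slc7a11, Gclc, Txnrd1 and Srxn1) and wholly below 0 for Nqo1, against 18.0% and 20.5% of all genes. Among the 8919 genes with at least as many reads as Slc7a11, the member with fewest, these shares were 21.9% and 25.3%. The median of the members was 0.27, beside -0.01 for all 13519 genes. In the pulldown 8 of 9 measured members were positive with a median of 0.29, beside -0.01 for all 10736 genes, but with library totals 4 of 9 were positive and the medians were -0.0036 and -0.31. The pulldown interval lay above 0 for 7 members and below 0 for Slc7a11, against 31.5% and 32.5% of all genes, or 32.8% and 33.4% of the 9266 genes with at least as many reads as Mt1. With library totals the 7 and 1 became 3 and 2. The minima of reads behind these shares, in both kinds of library, do not match the depth of each member. An interval narrows with depth, so the shares are no matched background. The call of Hmox1 and the negative sign of Slc7a11 held under each of the scalings tried. In the difference of the ratios 0 of 9 members were called, against 2.65% of 11356 genes called higher and 1.66% called lower, and the interval lay above 0 for 5 and below 0 for 2 (Gclm and Slc7a11), against 28.5% and 28.2% of all genes. With library totals it lay above 0 for 2 and below 0 for 3.

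The promoter windows of Gclm (chr3:122245307-122245606) and Srxn1 (chr2:152105274-152105573), both on the plus strand, are shown because they hold the antioxidant response element core, marked in capitals together with the metal response element core. In Gclm a match to each core overlaps. The Gclm window, like that of Mt1, rests on a transcript start inside the span of the gene.
Gclm: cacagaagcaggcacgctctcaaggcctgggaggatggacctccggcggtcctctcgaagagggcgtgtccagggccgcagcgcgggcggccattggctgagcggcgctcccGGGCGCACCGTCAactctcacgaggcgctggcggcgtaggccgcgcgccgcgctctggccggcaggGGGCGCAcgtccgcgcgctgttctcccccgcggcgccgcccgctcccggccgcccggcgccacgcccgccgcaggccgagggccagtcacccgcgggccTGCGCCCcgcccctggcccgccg
Srxn1: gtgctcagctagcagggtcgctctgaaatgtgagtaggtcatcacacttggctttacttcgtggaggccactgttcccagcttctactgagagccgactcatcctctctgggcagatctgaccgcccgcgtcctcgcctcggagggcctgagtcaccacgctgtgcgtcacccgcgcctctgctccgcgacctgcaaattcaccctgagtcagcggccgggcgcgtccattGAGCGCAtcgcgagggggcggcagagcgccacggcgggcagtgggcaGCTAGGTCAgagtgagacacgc
RefSeq windows were found for 8 of the 10 members, 10 windows in all, and 4 of them held the antioxidant response element core: those of Mt2, Gclm and Srxn1 and 1 of the 3 windows of Txnrd1. Among all 32851 windows, 12.4% held it. The windows of Nqo1, Slc7a11 and Sqstm1 held neither core, which says only that these letters are not within 250 bases before and 50 after those starts. The Gclm window held 3 metal response element cores, as many as Mt1, and the Srxn1 window 1. Members with the antioxidant core in a window had whole-cell ratios from 0.07 (Mt2) to 0.49 (Gclm), and members with a window but without it from -0.34 (Nqo1) to 0.40 (Slc7a11), so the ranges overlap. Hmox1 and Gclc had no window and are in neither range. Their whole-cell ratios were 0.58, the highest of the members, and 0.35.

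**Figure D3:**
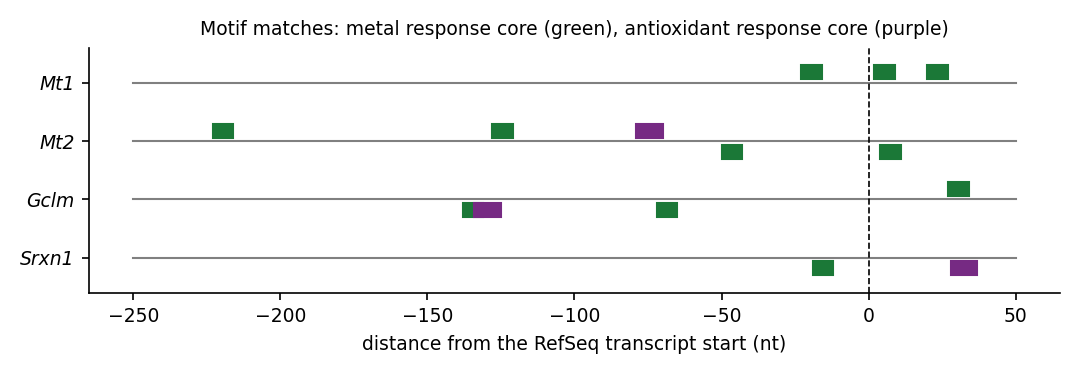
Matches to the metal response element core (green) and the antioxidant response element core (purple) along the promoter windows of Mt1, Mt2, Gclm and Srxn1, by distance in nt from the RefSeq transcript start (dashed line); boxes above the line are on the plus strand and boxes below it on the minus strand. Mt1 has 3 green boxes between -23 and 26, and Mt2 has 4 green boxes and 1 purple box between -223 and 10.

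The pulldown was set against whole-cell RNA of the same state and scaled by library totals because mitochondrial ribosomal RNA fills most of the pulldown. The series has no control pulldown. These ratios therefore cannot separate recovery with fibrillarin from other differences between the kinds of library. In High 8 of 10 members were called lower in the pulldown and 0 higher, against 74.1% of 12773 genes lower and 2.41% higher. In Low 7 were called lower and 1 higher, against 62.4% of 12774 genes lower and 2.58% higher, so the lower calls follow the background. The median of all genes was -2.15 in High and -1.75 in Low, and the members are best read against it. TMM within the pair moved all genes by 1.84 in High and 1.43 in Low. With it the calls in High were 3 lower and 1 higher, beside 22.6% and 13.2% of all genes.

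Slc7a11 stood at the upper end, with a log2 ratio of 0.97 (0.75 to 1.19) in High and 2.41 (2.18 to 2.64) in Low, which is 3.12 and 4.15 above the median of all genes. Only 395 and 178 genes had a larger ratio. Gclc had -0.99 and -0.47 and Gclm -1.29 and -0.57, between 0.86 and 1.28 above the median. All 4 of these ratios turned positive with TMM (0.86 and 0.96 for Gclc, 0.55 and 0.85 for Gclm) and with totals without mitochondrial genes (0.53 and 0.90, then 0.22 and 0.80). Hmox1 had -1.61 (-1.67 to -1.55) in High and -2.11 (-2.20 to -2.03) in Low, a deviation from the median of 0.54 and -0.37, and the sign in High turned with TMM (0.24). Srxn1 had -1.97 and -2.17, Txnrd1 -2.65 and -2.66, and Nqo1 -2.78 and -3.05. Sqstm1 had -3.58 and -3.61 and Mt1 -4.01 (-4.47 to -3.58) and -3.67 (-4.08 to -3.28). Mt2 was at the lower end with -9.40 (-14.71 to -6.92) and -8.37 (-11.42 to -6.51), and 198 and 164 genes lay below it.

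The ratios of the members tended to rise with the length of their genes, though not in strict order. Txnrd1 (63.8 kb) lay below Srxn1 (5.85 kb) and Hmox1 (6.98 kb) in both states. Spearman's rho between the gene span in RefSeq and the ratio was 0.73 over the 10 members in each state, and 0.24 in High and 0.27 in Low over 11116 and 11149 protein-coding genes, as a description across genes that share the libraries. The shortest span is that of Mt2 (0.95 kb), then Mt1 (1.445 kb), and the longest that of Slc7a11 (134 kb). Over all protein-coding genes the median ratio was -3.19 in High and -2.89 in Low for spans up to 2 kb, and -1.76 and -1.27 for spans over 100 kb. Mt1 lay within this pattern: 45 of 180 short genes in High and 54 of 184 in Low had a lower ratio. Mt2 lay outside the bulk of it, since 2 of the 180 and 3 of the 184 were lower, each of them with 0 pulldown reads. Slc7a11 was exceeded by 23 of 1593 genes over 100 kb in High and by 20 of 1637 in Low. Its span runs to 50499087, whereas the promoter window searched for it (chr3:50443564-50443863, minus strand) lies inside that span. Length and window thus rest on different transcript starts, and the length class depends on the start taken. Counts per gene do not separate exons from introns, so whether mature or unspliced transcripts were recovered was not tested.

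**Figure D4:**
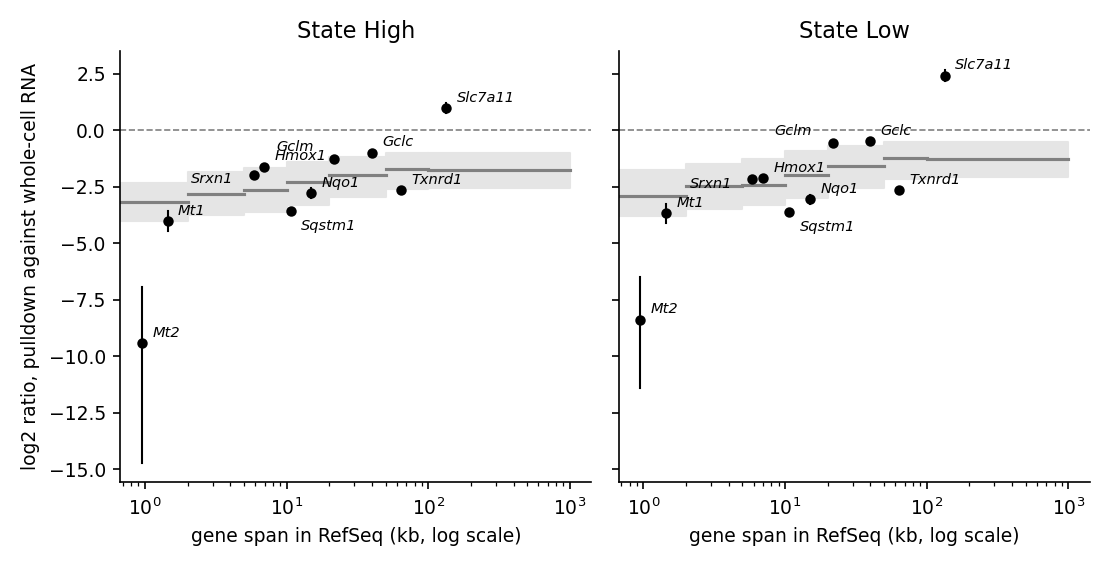
Log2 ratio of pulldown to whole-cell RNA by library totals against the RefSeq span of the gene (log axis) in High (left) and Low (right), with 95% counting intervals; grey lines and bands give the median and the interquartile range of all protein-coding genes in each span class. Slc7a11 lies above the band and Mt2 far below it in both states, and Mt1 lies near the lower quartile of its class (-4.04 in High, -3.81 in Low).

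The genes around the members were followed in 10 lists of 100 distinct genes. Of NRF2 and its regulators, all 10 were measured and 0 were called between the states in either kind of library. Nfe2l2 itself had 5198 and 4974 reads, or 235 and 229 CPM, in High and Low whole-cell RNA and 3041 and 3964 reads, or 118 and 142 CPM, in the pulldowns. Keap1 had 1068 and 1029 whole-cell reads and 242 and 136 pulldown reads, with a pulldown ratio of 1.23 (0.92 to 1.55), the highest of its list, while Mafg had the lowest at -0.44. In whole-cell RNA the list ran from 0.27 for Cul3, the ligase scaffold that works with KEAP1, to -0.22 for the NRF2 relative Nfe2l1, with a median of -0.03. Bach1 stood at 58.0 and 49.1 CPM in the whole-cell libraries and at 16.7 and 22.8 CPM in the pulldowns.

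Of MTF1 and zinc transporters, 11 of 12 were measured, with 0 calls for whole-cell RNA and 2 genes called higher for the pulldown. These were the zinc transporter genes Slc30a9 (873 against 408 reads; 1.498, 1.33 to 1.67) and Slc39a14 (1161 against 657 reads; 1.22, 1.08 to 1.36), and by library totals the latter did not reach the line (0.93). Mtf1 had the lowest ratio of the list in both kinds of library, -0.23 for whole-cell RNA and -0.60 for the pulldown. The efflux transporter Slc30a1, a target of MTF1 like the metallothioneins, had 711 and 646 whole-cell reads and 289 and 367 pulldown reads.

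Of the 19 genes of glutathione synthesis and use, 0 were called in whole-cell RNA, where the median was -0.09. Gsr, glutathione reductase, was the highest at 0.63 (0.49 to 0.77; 1167 against 708 reads), and Mgst3 the lowest at -0.52. In the pulldown 18 were measured, and the highest, the transferase Gstt1, was not called (41 against 20 reads; 1.44, 0.63 to 2.29). The glutathione transferase Gsto1 was called higher (533 against 302 reads; 1.22, 1.01 to 1.43), but not with library totals (0.93), and the peroxidase Gpx7 lower (44 against 164 reads; -1.497, -2.01 to -1.01). The superoxide dismutase Sod3, a secreted enzyme, was the 1 of 4 called in its list, at 1.11 (1.04 to 1.17; 5124 against 3141 reads), and it missed the line with library totals (0.81). The mitochondrial Sod2 had the lowest pulldown ratio of that list, -0.71, and the highest whole-cell ratio, 0.14, with the cytosolic Sod1 lowest at -0.03.

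The remaining lists held no call between the states. Among other NRF2 targets (11 of 14 measured in whole-cell RNA, median -0.08), Osgin1, an oxidative stress-induced growth inhibitor, had the highest ratio at 0.96 (0.78 to 1.14; 743 against 359 reads) and the epoxide hydrolase Ephx1 the lowest at -0.39. In the pulldown their ratios ran from 0.78 for the efflux pump Abcc4 to -0.71 for Pir. The thioredoxin and peroxiredoxin list had a whole-cell median of 0.02, from Prdx2 at -0.17 to Txnrd3 at 0.27, and a pulldown median of 0.42, from Prdx4 at -0.26 to the mitochondrial thioredoxin Txn2 at 1.21. Genes of NADPH supply had medians of 0.03 and 0.05, with Me1 at 0.11 and Tkt at -0.44 as the ends of the whole-cell ratios and Taldo1 at 0.92 and Idh1 at -0.06 as those of the pulldown ratios. Genes of heme and iron handling had medians of -0.04 and 0.23, with Blvrb highest of the whole-cell ratios at 0.06, and the ferritin light chain Ftl1 at 0.997 and Hmox2, the constitutive heme oxygenase, at -0.77 as the pulldown ends. The autophagy list, which shares Keap1 with the first, had medians of -0.02 and 0.40, and its whole-cell ends were Optn at 0.22 and Gabarapl2 at -0.29. Optn was lowest of that list in the pulldown, at -0.45. Over the 10 lists, 0 of 92 measured genes were called in whole-cell RNA, and 4 of 88 higher and 1 of 88 lower in the pulldown. The pulldown shares of 4.55% and 1.14% stand beside the 3.43% and 2.90% of all genes. The median over the lists in the pulldown was 0.25, beside -0.01 for all genes, and it was -0.04 beside -0.31 with library totals. In the difference of the ratios Slc30a9 (1.35, 1.15 to 1.55) and Sod3 (1.14, 1.07 to 1.22) were called higher, 2 of 90, or 2.22% beside 2.65% of all genes, and neither with library totals. Against whole-cell RNA, 82 of 92 list genes were called lower in the High pulldown and 74 of 92 in the Low pulldown, or 89.1% and 80.4%, beside 74.1% and 62.4% of all genes.

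**Figure D5:**
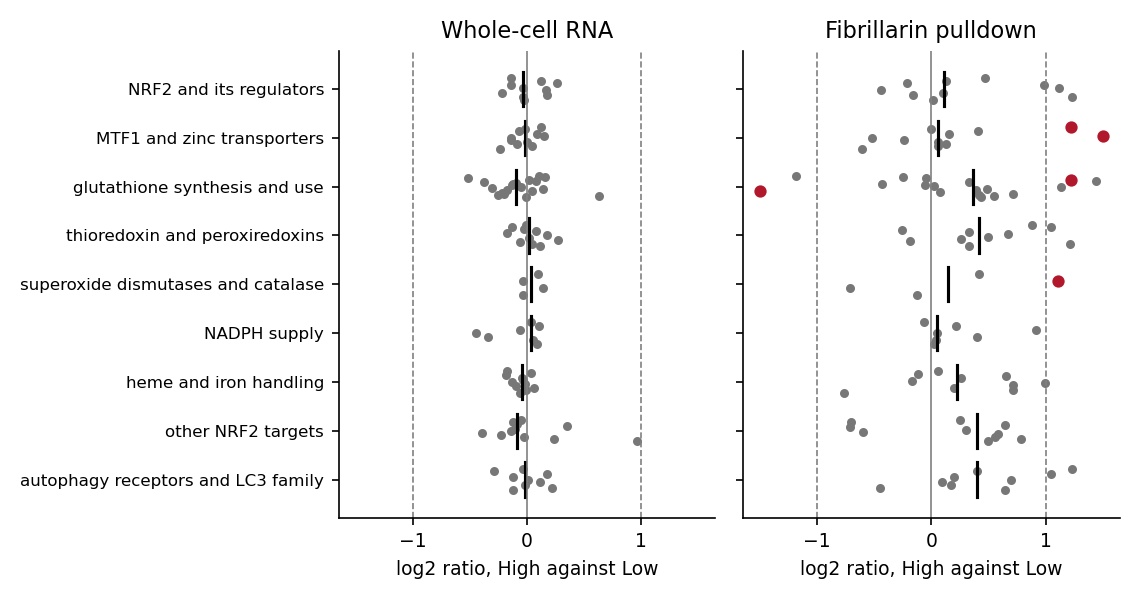
Log2 ratio of High to Low for the measured genes of the lists around the members, in whole-cell RNA (left) and the pulldown (right); each point is a gene, black bars are medians, dashed lines mark 2-fold and red points have their whole 95% interval beyond it. The left panel has 0 red points and the right panel 5, of which Gpx7 at -1.497 is the 1 on the lower side.

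The genes most like Mt1, Mt2 and Hmox1 over the 4 libraries were found by the Euclidean distance between log2 CPM profiles centred on their means, among genes with 50 or more reads in all 4. Nearest to Mt1 were Mrtfa (distance 0.078), Vasp (0.080) and Clpp (0.089), of which Clpp had 34.5 and 30.1 CPM in the whole-cell libraries and 2.20 and 2.34 CPM in the pulldowns. The member nearest to Mt1 among those past 50 reads was Sqstm1, at rank 133 of 8392. For Mt2, whose 1 and 2 pulldown reads lie under the minimum for a candidate, the nearest were Gm26917 (2.37), Tagln (2.48) and Eno1 (3.22). Genes as low as Mt2 in the pulldown could not be among them, so these distances do not show whether Mt2 has a close neighbour. Nearest to Hmox1 were Chil1 (0.23; 391 and 256 whole-cell reads, 146 and 87 pulldown reads), AC121821.1 (0.25) and Mcur1 (0.34). Among the members, Srxn1 was nearest to Hmox1, at rank 76 of 8391, and Slc7a11 was the farthest of those ranked, at 8330.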

How the data were processed

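The authors deposited raw counts by Ensembl gene ID, 1 table for each kind of library, and the pulldown RNA had been depleted of ribosomal RNA, per the labels' protocols. The submitters' processing notes name HTSeq 0.9.1, StringTie 1.3.4, STAR 2.6.0c, cutadapt 2.4 and the build GRCm38, without their settings. The annotation and strand setting were not given in the sources used here. Summary lines of HTSeq were left out of the gene totals. Symbols were paired with 55450 of 55536 IDs. Spans are from RefSeq (GRCm38.p6).

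Groups follow the sample titles. For High against Low, TMM factors came from edgeR 4.0.16 (R 4.3.3), separately for the whole-cell pair and the pulldown pair, and genes needed an average of 1 CPM or more. Pulldown and whole-cell RNA were compared by library totals. Alternatives were other scalings (library totals, DESeq2 1.42.0 size factors, TMM within the pair, totals without mitochondrial or the 20 most abundant genes), other filters and a 1.5-fold line. The difference of the log2 ratios used genes with 10 or more reads in all 4 libraries. Intervals are exact (Clopper-Pearson) for 2 libraries and normal on the log scale for 4, both at 95%. Reads copied by PCR are not independent molecules, so intervals cover counting error only. With 1 library in each group no test between groups was run. A gene was called where its whole interval lay beyond 2-fold. The computation was tested on simulated data.

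The members and lists were chosen with earlier results of these data known, so no list is independent support. Text names all members and, in the comparisons of states, list genes that were called or were highest or lowest in a list, and the 3 genes most like Mt1, Mt2 and Hmox1. List genes outside this rule (Nfe2l2, Bach1, Slc30a1 and Slc3a2) are named for their role, with their values already seen. For the pulldown against whole-cell RNA, list genes are given by counts alone, and for the difference of the ratios only those called are named. The lowest whole-cell ratio of the heme and iron list is not reported here.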

Additional observations from a re-analysis of the deposited data

Results flagged for a closer look

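Slc7a11 and Nqo1 are listed here because the High against Low difference had opposite directions in the 2 kinds of library, with both intervals clear of 0. For Slc7a11 the whole-cell log2 ratio was 0.40 and the pulldown ratio -0.68, and the difference of the ratios was -1.08. For Nqo1 the ratios were -0.34 and 0.29, and the difference was 0.63. With 1 library in each group, neither difference was tested against variation between cultures. The Nqo1 pulldown ratio has a lower bound of 0.02 and was -0.0036 with library totals, whereas both Slc7a11 ratios kept their sign under each scaling tried.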

How the results depend on the processing

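No paired analysis was possible because each group has 1 library and the labels carry no replicate numbers; for the same reason no replicate could be left out. A change of the filter or of the line leaves the ratio of a gene as it is, so only another scaling could move it. For single genes, 608 values under an alternative, those fixed ones included, stayed within the interval of the value reported. Another 109 moved outside it, some with a change of sign. In 3 more, a value past the 2-fold line changed sign. These are pulldown against whole-cell ratios in High: Gclm with TMM within the pair (0.55) and with totals without mitochondrial genes (0.22), and Hmox1 with TMM (0.24). Of member ratios not past the line, those of Gclc in both states and Gclm in Low also changed sign under both of these scalings. So did the pulldown ratios of Mt1, Nqo1, Gclm and Gclc with library totals, the whole-cell ratio of Sqstm1 with each other scaling, and the difference of the ratios of Mt1 with library totals (0.02 to -0.34) and with size factors. With a line of 1.5-fold, 3 members in place of 1 were called higher in the pulldown (Hmox1, Txnrd1 and Srxn1), 1 list gene in place of 0 in whole-cell RNA (Osgin1), 16 higher and 2 lower list genes in place of 4 and 1 in the pulldown, and 1 member in place of 0 higher in the pulldown against whole-cell RNA of High. At that line 7.71% of all genes were called higher and 7.85% lower in the pulldown, and 0.436% higher in whole-cell RNA. In the pulldown against whole-cell RNA of High, 3.16% of all genes were called higher.

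With library totals the pulldown calls of list genes were 1 higher and 2 lower (Chac1 and Gpx7), and without the 20 most abundant genes 2 higher; with the filter at 5 CPM 0 were lower, since Gpx7 was no longer measured. In all genes the pulldown split of 368 higher and 311 lower became 238 and 608 with library totals, or 2.22% and 5.66%. The shares were 3.07% and 3.46% without the 20 most abundant genes, and 2.73% and 1.66% at 5 CPM. In the difference of the ratios, library totals gave 1 member lower (Slc7a11) and 0 list genes higher and 2 lower, and median-of-ratios size factors 1 list gene lower. Of all genes, 5.09% and 1.88% were called lower under these scalings. Against whole-cell RNA of High, TMM gave 1 member higher and 3 lower with 8 list genes higher and 25 lower, and totals without mitochondrial genes gave 1 and 5 members with 3 and 35 list genes. Of all genes, TMM called 13.2% higher and 22.6% lower there, and totals without mitochondrial genes 9.04% and 30.5%. In Low, TMM gave 5 list genes higher and 36 lower and totals without mitochondrial genes 4 and 36. The shares of all genes in Low were 13.6% and 26.3% with TMM, and 12.8% and 27.4% without mitochondrial genes. Depth limits Mt2 most: 1 and 2 pulldown reads allow no comparison of the states.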
